A study of Mus musculus with 16 samples.

Results

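The genes described here encode the subunits and assembly factors of the proteasome, the protease complex that degrades proteins tagged with ubiquitin. They were taken by their symbols (Psma, Psmb, Psmc, Psmd, Psme, Psmf or Psmg followed by a digit) from the protein-coding genes of GENCODE M21. Of the 50 genes that match, Psmd10 lies on chromosome X and was left out, so 49 of the 20807 autosomal protein-coding genes were followed. The rule used no measured value. It also takes Psmc3ip, a cofactor of meiotic recombination named for its binding to Psmc3 and no part of the proteasome, and Psme2b, an intronless copy of Psme2. How reads shared by Psme2 and Psme2b were placed is not given in the sources used here.

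To ask where H2Bub1 and RNA polymerase II (Pol II) lie when H2Bub1 cannot be removed by the ATXN7L3-dependent enzymes, chromatin immunoprecipitation and sequencing (ChIP-seq) was carried out with antibodies to H2Bub1 and to RPB1, the largest subunit of Pol II. WT (Atxn7l3+/+) and KO (Atxn7l3-/-) mouse embryonic stem cells (mESCs) and embryonic fibroblasts (MEFs) were used, all of the mixed strain DBA/2 x C57BL/6. The KO allele is a null allele carried in every cell, made from a construct in which exons 2 to 12 lie between loxP sites. The mESCs came from single blastocysts and were kept with LIF, 1 µM PD0325901, 3 µM CH99021 and 15% serum (FCS). The MEFs were the cells of E10.5 embryos without head and gut, grown in 10% FCS, and no sorting for fibroblasts is described. Peak lists of 8 libraries were analysed, with 1 library for each antibody, genotype and cell type. There were therefore no replicates, no p-value is given, and no difference below can be held against a spread between samples. The read depth of the lists is unknown.

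The Pol II lists held 17074 peaks in WT against 11963 in KO mESCs, and 45870 and 32232 in MEFs. The H2Bub1 peaks covered 71.6 Mb of the genome in WT against 151.1 Mb in KO mESCs, and 48.1 against 223 Mb in MEFs. The shares of proteasome genes are therefore read beside those of all genes in the same list. Of 6 pluripotency markers, 5 had a Pol II promoter peak in each mESC library, 0 in WT MEFs and 1 (Tfcp2l1) in KO MEFs, and of 6 fibroblast markers 6 had one in WT MEFs, 5 in KO MEFs (not Postn) and 0 in mESCs. Of the markers of other cells, 0 of 4 epithelial and of 3 blood genes had one in MEFs, 1 of 4 endothelial genes had one in each MEF library (Kdr in WT and Pecam1 in KO), and in mESCs those with one were the epithelial genes Cdh1 and Epcam, which mESCs also express. Atxn7l3 itself lay 100% within H2Bub1 peaks in WT mESCs and 62.5% in KO mESCs, where its longest stretch outside peaks was 2750 bp. In MEFs its covered share was 22.0% in WT against 65.3% in KO, and the longest stretch outside peaks was 5078 bp in WT and 2541 bp in KO.

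The proteasome consists of a barrel-shaped core particle, in which proteins are cut, and regulatory particles that bind ubiquitin, unfold the protein and feed it into the barrel. The core is built of outer alpha rings, which form the gate, and inner beta rings, which hold the active sites. The subunit genes are needed in every cell and are known to be raised together by the transcription factors Nfe2l1 and Nfe2l2, while interferon raises an alternative set of active-site subunits. H2Bub1 is a modification laid down in the bodies of transcribed genes behind Pol II, and is removed by enzymes that need ATXN7L3.

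A Pol II promoter call required at least 1 bp of a deposited peak within 1000 bp of the transcription start site (TSS) of the gene record. The fold of a peak is its pileup over the background of its own library, so folds rank genes within a library, and a ratio of KO to WT folds compares these enrichments and not the amounts of Pol II. The highest peak touching the window was taken in each library on its own. A ratio can therefore compare peaks with different summits, and a summit can lie outside the window. In WT mESCs, 26 of the 49 proteasome genes had such a peak, which is 53.1% against 35.3% of all genes. In KO mESCs 23 had one (46.9%, against 32.1% of all genes). In MEFs the count was 43 in WT (87.8%, against 55.3%) and 42 in KO (85.7%, against 52.3%). The share of proteasome genes lay above that of all genes in each of the 4 libraries.

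Both mESC genotypes had a peak at 20 of the proteasome genes (40.8%, against 27.2% of all genes), and both MEF genotypes at 42 (85.7%, against 50.8%). The same 20 genes were called in all 4 libraries, where the share of all genes was 26.1%. They came from every large module of the complex, with 4 of 7 alpha subunits, 2 of 7 constitutive beta subunits, 3 of 6 ATPases, 4 of 8 lid subunits and 3 of 4 core chaperones. A further 13 had a peak in both MEF libraries and in no mESC library (26.5%, against 14.2% of all genes). These were Psma5, Psmb5, Psmb6, Psmb8, Psmb9, Psmb10, Psmc1, Psmc3, Psmc4, Psmd4, Psme1, Psme2 and Psmg3, and include 5 of the 6 genes for constitutive or interferon-induced active sites.

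**Figure D1:**
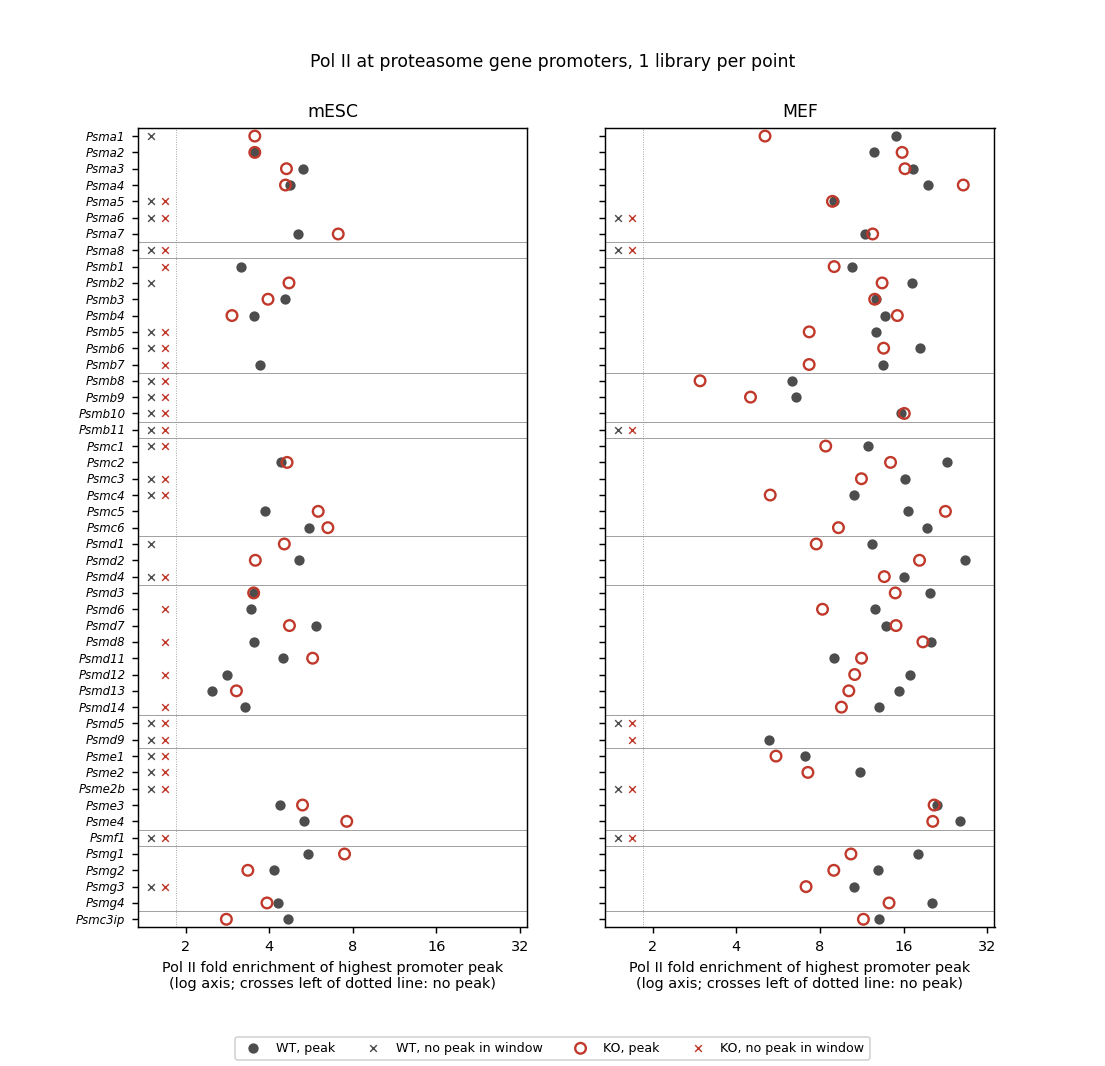
Fold enrichment of the highest Pol II peak within 1000 bp of the TSS (log axis) for each proteasome gene, ordered by module, in mESCs on the left and MEFs on the right, with WT as filled and KO as open circles and crosses for genes with no peak. Each circle is 1 library. In MEFs 34 of 42 open circles lie left of the filled ones, and in mESCs 11 of 20 do.

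In mESCs the calls were not the same in both genotypes. A peak in WT only was found at 6 proteasome genes (12.2%, against 8.04% of all genes), namely Psmb1 and Psmb7 of the beta ring and Psmd6, Psmd8, Psmd12 and Psmd14 of the lid. Psmd14 is the lid enzyme that removes ubiquitin from the substrate, and its WT fold was 3.27. The WT folds of the others were 3.16 at Psmb1, 3.69 at Psmb7, 3.44 at Psmd6, 3.52 at Psmd8 and 2.83 at Psmd12, all below 4.33, the median of the 26 proteasome genes called in that list. The summit counted for Psmb1 lay at -354 bp, beyond the start of Tbp, which is 137 bp upstream on the other strand. That peak may therefore belong to Tbp. A peak in KO only was found at 3 genes (6.12%, against 4.85% of all genes), with a fold of 3.55 at Psma1, 4.71 at Psmb2 and 4.53 at Psmd1, a scaffold of the base. Each of these shares was above that of all genes by less than 5 percentage points. All 9 genes had Pol II peaks in both MEF libraries. When the longer list was reduced to the number of peaks of the shorter one, the count was 3 for WT (against 5.41% of all genes) and 4 for KO (against 7.52%).

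In MEFs a single gene, Psmd9, had a peak in WT only (2.04%, against 4.43% of all genes), with a fold of 5.25, and 0 had one in KO only (against 1.51%). Psmd9, a chaperone of base assembly, is one of the genes whose record starts at an outlying transcript. When windows were placed at the starts of all basic protein-coding transcripts, an alternative chosen after the data had been seen, the fold at Psmd9 was 13.1 in WT against 12.7 in KO MEFs and no gene was left in WT only.

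With the window at the gene record, 6 genes had no Pol II promoter peak in any library: Psma6, Psma8, Psmb11, Psmd5, Psme2b and Psmf1. Windows at all transcript starts gave Psma6, an alpha subunit, a fold of 4.19 in WT against 4.49 in KO mESCs, and of 23.3 and 30.6 in MEFs. Psmd5, which like Psmd9 encodes a chaperone of base assembly, had 5.52 and 8.17 in mESCs and 28.4 and 33.0 in MEFs. Psmf1, which encodes an inhibitor of the core particle, had 2.91 in WT mESCs, no peak in KO mESCs, and 13.1 in WT against 8.75 in KO MEFs. Over these starts 46 of 49 genes were called in each MEF library (93.9%, against 57.8% of all genes in WT and 54.9% in KO), leaving Psma8 (testis), Psmb11 (thymus) and the copy Psme2b without a peak.

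Among the genes with peaks in both genotypes, the fold was lower in KO at 11 of 20 in mESCs (55%, against 47.8% of all genes), and the median log2 of the KO to WT ratio was -0.0014. In MEFs it was lower in KO at 34 of 42 (81.0%, against 67.5% of all genes), with a median log2 ratio of -0.44, where that of all 10576 genes with both peaks was -0.22. In MEFs both medians lay below 0, that of the proteasome genes further than that of the whole list.

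The gene with the highest promoter fold was a different one in each library. In WT mESCs the 3 highest folds were those of Psmd7, the lid partner of Psmd14, Psmc6, an ATPase of the base, and Psmg1, a chaperone of alpha-ring assembly. The fold at Psmd7 was 5.92 in WT against 4.73 in KO mESCs and 13.9 against 15.0 in MEFs. At Psmc6 it was 5.57 in WT against 6.51 in KO mESCs and 19.4 against 9.33 in MEFs. Psmg1 had 5.52 in WT against 7.47 in KO mESCs and 18.1 against 10.3 in MEFs, so that its order between genotypes turned over between the cell types.

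In KO mESCs the top genes were Psme4, Psmg1 and Psma7. Psme4 encodes the large nuclear activator that opens the core for proteins without ubiquitin, and its fold was 5.34 in WT against 7.61 in KO mESCs and 25.6 against 20.4 in MEFs. Psma7, an alpha subunit, had 5.09 in WT against 7.09 in KO mESCs and 11.6 against 12.4 in MEFs. The KO value was the higher one at both genes in mESCs, and at Psme4 the WT value was the higher one in MEFs. The start of Psma7 lies 76 bp from that of Ss18l1 on the other strand, and ChIP-seq peaks do not tell such genes apart.

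In WT MEFs Psmd2, the base subunit on which ubiquitin-carrying shuttle proteins dock, had the highest fold of the proteasome genes, ahead of Psme4 and Psmc2. The fold at Psmd2 was 5.13 in WT against 3.57 in KO mESCs and 26.6 against 18.3 in MEFs, and was lower in KO in both cell types. Psmc2, an ATPase whose start is 32 bp from that of Dnajc2, had 4.43 in WT against 4.64 in KO mESCs and 22.9 against 14.4 in MEFs. The summits at Psmc2 lay at -128 bp (WT) and -146 bp (KO) in mESCs. In MEFs they lay 1341 bp (WT) and 1385 bp (KO) into the gene, outside the promoter window. In KO MEFs the top genes were Psma4, Psmc5 and Psme3, with Psma4, an alpha subunit, at 4.77 in WT against 4.58 in KO mESCs and 19.5 against 26.2 in MEFs.

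At Psmc5 the KO value was the higher one in both cell types, and at Psme3 in mESCs. Psmc5, an ATPase, had 3.85 in WT against 6.00 in KO mESCs and 16.5 against 22.6 in MEFs, which gave the highest ratio of KO to WT in both cell types (1.56 in mESCs and 1.37 in MEFs). Its start lies 75 bp from that of Ftsj3. Psme3, which encodes an activator found in the nucleus, had 4.36 in WT against 5.27 in KO mESCs and 21.1 against 20.6 in MEFs. The next highest ratios were 1.42 at Psme4 in mESCs and 1.34 at Psma4 in MEFs.

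The lowest ratios in mESCs were 0.599 at Psmc3ip and 0.695 at Psmd2. Psmc3ip had a fold of 4.68 in WT against 2.81 in KO mESCs and 13.0 against 11.5 in MEFs. In MEFs the lowest were 0.337 at Psma1, with 15.0 in WT against 5.08 in KO, and 0.465 at Psmb8, with 6.37 in WT against 2.96 in KO. The first is a constitutive alpha subunit, with summits 93 bp (WT) and 97 bp (KO) after the start. The second is an interferon-induced active site, with its summit 686 bp after the start in WT and 13 bp in KO. Its ratio may therefore not compare the same peak.

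The 13 genes called in MEFs only had the following folds there. The alpha subunit Psma5 had 9.004 in WT against 8.87 in KO, and Psmb5 and Psmb6, which cut the substrate, had 12.7 in WT against 7.32 in KO and 18.3 in WT against 13.6 in KO. Of the ATPases, Psmc1 had 12.0 in WT against 8.39 in KO, Psmc3 had 16.2 in WT against 11.3 in KO, and Psmc4 had 10.6 in WT against 5.30 in KO. All 6 of these genes were lower in KO.

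The ubiquitin receptor Psmd4 had 16.1 in WT against 13.6 in KO. The activator genes Psme1 and Psme2 had 7.06 in WT against 5.56 in KO, and 11.2 in WT against 7.24 in KO. The summit at Psme2 lay at -677 bp in WT and -141 bp in KO, and the start of Rnf31 lies 595 bp upstream. The values of Psme2 may therefore not compare the same peak. The core chaperone Psmg3 had 10.6 in WT against 7.13 in KO. These 4 were lower in KO as well, as were Psmb8 and Psmb9, and Psmb10, with 15.7 in WT against 16.1 in KO, was the one gene of the 13 that was not.

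The 9 genes called in a single mESC list had these MEF values. Psma1 had 15.0 in WT against 5.08 in KO, Psmb2 had 17.2 in WT against 13.4 in KO, and Psmd1 had 12.3 in WT against 7.76 in KO. Psmb1 had 10.4 in WT with a KO to WT ratio of 0.864, and Psmb7 had 13.5 in WT against 7.32 in KO. The summits at Psmb1 lay 1463 bp (WT) and 1414 bp (KO) into the gene, outside the promoter window. Of the lid genes, Psmd6 had 12.6 in WT against 8.17 in KO, Psmd8 had 20.01 in WT against 18.8 in KO, Psmd12 had 16.9 in WT against 10.7 in KO, and Psmd14 had 13.0 in WT against 9.56 in KO. Each of the 9 was lower in KO MEFs, as were 81.0% of the proteasome genes and 67.5% of all genes with peaks in both MEF lists.

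Further genes were called in all 4 libraries. Among core subunits, Psma2 had a fold of 3.55 in WT against 3.55 in KO mESCs and 12.6 against 15.8 in MEFs, and Psma3 had 5.30 in WT against 4.62 in KO mESCs and 17.4 against 16.2 in MEFs. Psmb3 had 4.57 in WT against 3.96 in KO mESCs and 12.7 against 12.6 in MEFs, and Psmb4 had 3.54 in WT against 2.94 in KO mESCs and 13.8 against 15.2 in MEFs. In MEFs the KO value was the higher one at Psma2 and Psmb4 and the lower one at Psma3 and Psmb3. In the lid, Psmd3 had 3.52 in WT against 3.52 in KO mESCs and 19.97 against 14.9 in MEFs, Psmd11 had 4.50 in WT against 5.73 in KO mESCs and 8.98 against 11.3 in MEFs, and Psmd13 had 2.49 in WT against 3.05 in KO mESCs and 15.4 against 10.2 in MEFs. Psmd11 was higher in KO in both cell types. At Psmd13 the summit lay before the start in WT and after it in KO, in both cell types. Of the core chaperones, Psmg2 had 4.16 in WT against 3.35 in KO mESCs and 12.9 against 8.97 in MEFs, and Psmg4 had 4.31 in WT against 3.93 in KO mESCs and 20.2 against 14.2 in MEFs, both lower in KO in both cell types. The start of Cep76 lies 263 bp upstream of that of Psmg2 on the other strand. The summits counted for Psmg2 lay beyond it, at -419 bp (WT) and -557 bp (KO) in mESCs and -388 bp in both MEF libraries. These folds may therefore belong to Cep76.

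Bases directly upstream of the start are shown for 8 genes that stand for what was found in the promoters: the active-site genes Psmb5 and Psmb6 with an Nfe2l1/Nfe2l2 core, Psmb3 with CCAAT boxes, Psmb4 with an overlapping pair of TATA boxes, and Psmd2, Psmd11, Psme3 and Psmg1 with an ETS motif. They run 5′ to 3′ toward the RefSeq start (build GRCm38.p6), end before the start of the gene record, and carry in capitals each match to TGACNNNGC (core of the element bound by Nfe2l1 and Nfe2l2), CCAAT (bound by NF-Y), CCGGAAG (ETS factors), GGGCGG (SP factors) or TATAAA on either strand.
Psmb5 (chr14:54618023-54618115, minus strand): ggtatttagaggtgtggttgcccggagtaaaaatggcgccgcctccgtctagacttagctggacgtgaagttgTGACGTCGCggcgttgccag
Psmb6 (chr11:70525237-70525356, plus strand): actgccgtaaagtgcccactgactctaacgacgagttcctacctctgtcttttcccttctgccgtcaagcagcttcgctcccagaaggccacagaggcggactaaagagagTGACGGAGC
Psmb3 (chr11:97703314-97703398, plus strand): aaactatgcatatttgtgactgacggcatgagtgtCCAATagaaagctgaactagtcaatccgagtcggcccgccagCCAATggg
Psmb4 (chr3:94886962-94887078, minus strand): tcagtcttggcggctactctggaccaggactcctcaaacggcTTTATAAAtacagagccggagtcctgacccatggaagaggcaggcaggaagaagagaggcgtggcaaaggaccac
Psmd2 (chr16:20651532-20651651, plus strand): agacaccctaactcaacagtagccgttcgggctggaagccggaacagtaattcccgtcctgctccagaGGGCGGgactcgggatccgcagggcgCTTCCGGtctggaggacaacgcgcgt
Psmd11 (chr11:80428495-80428614, plus strand): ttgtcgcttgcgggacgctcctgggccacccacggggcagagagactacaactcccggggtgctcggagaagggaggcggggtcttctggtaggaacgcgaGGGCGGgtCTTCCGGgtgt
Psme3 (chr11:101316093-101316212, plus strand): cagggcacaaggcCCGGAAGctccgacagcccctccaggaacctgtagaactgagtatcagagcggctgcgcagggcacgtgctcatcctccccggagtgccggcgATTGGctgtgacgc
Psmg1 (chr16:95990961-95991080, minus strand): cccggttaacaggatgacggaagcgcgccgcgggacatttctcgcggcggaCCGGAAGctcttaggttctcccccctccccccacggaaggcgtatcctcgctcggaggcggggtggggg

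RefSeq promoter entries were matched by symbol for 41 of the 49 genes (44 entries). Psma8, Psmb1, Psmb2, Psmb7, Psmc3, Psmd3, Psmd7 and Psmg2 were not matched. In the 250 bp upstream of the start, CCGGAAG was found in 14 of the 44 entries (31.8%), and in 9.45% of 19174 autosomal promoters. TGACNNNGC was found in 5 (11.4%, against 10.7%), at Psmb5, Psmb6, Psmc6, Psmd9 and Psmd12. CCAAT was found in 14 (31.8%, against 34.7%), GGGCGG in 22 (50%, against 44.6%) and TATAAA in 4 (9.09%, against 11.2%). Of these motifs the ETS motif was the one whose share among the proteasome promoters differed most from that of all promoters. Of the 5 genes with the TGACNNNGC core, Psmb5, Psmb6 and Psmd9 had no Pol II promoter peak in mESCs, Psmd12 had one in WT and Psmc6 one in each genotype.

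Beyond the promoter window, Pol II peaks in the gene body were counted in the 48 proteasome genes long enough to have such a region. In mESCs 12 had one in WT (25%, against 21.6% of all genes) and 5 in KO (10.4%, against 14.0%). In MEFs 27 had one in WT (56.2%, against 43.5%) and 24 in KO (50%, against 35.0%). In WT MEFs the widest coverage was at Psmb10, with 94.9% of the region (42.2% in KO), followed by Psma7 with 87.5% (49.1% in KO) and Psmc3 with 76.4% (56.9% in KO). In KO MEFs the order was Psmc3, Psma7, Psmd8 and Psmb10, and Psmd8 had 32.4% in WT against 45.1% in KO.

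H2Bub1 was scored by the share of the gene body, from TSS to transcript end, that lay inside deposited peaks. At least 1 bp was covered at 42 of the 49 genes in WT mESCs (85.7%, against 55.7% of all genes), at 45 in KO mESCs (91.8%, against 62.1%), at 36 in WT MEFs (73.5%, against 31.7%) and at 46 in KO MEFs (93.9%, against 54.3%). The median covered share of a proteasome gene was 18.4% in WT against 49.9% in KO mESCs, and 17.3% in WT against 63.4% in KO MEFs. The medians of all genes were 1.31%, 6.66%, 0% and 6.37% in the same order. Among genes of 5 to 30 kb with Pol II called in both genotypes, the medians of the 15 proteasome genes in mESCs were 30.3% for WT and 54.4% for KO, below the 33.2% and 57.5% of all 2459 such genes. In MEFs those of 26 proteasome genes were 25.3% and 79.2%, above the 2.81% and 55.5% of 4986 such genes. The median fold of the peaks over the covered proteasome genes was 2.87 in WT against 3.62 in KO mESCs, and 3.21 and 4.17 in MEFs. At a stricter threshold of the peak caller (-log10 q of at least 3), 20 genes kept a peak in WT mESCs (40.8%, against 22.2% of all genes) and 43 in KO mESCs (87.8%, against 44.9%), and in MEFs 10 did in WT (20.4%, against 5.76%) and 44 in KO (89.8%, against 49.4%).

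The covered share was higher in KO at 44 proteasome genes in mESCs (89.8%, against 54.2% of all genes) and at 46 in MEFs (93.9%, against 53.8%). Where Pol II was called at the promoter in both genotypes, all 20 proteasome genes in mESCs were higher in KO (100%, against 84.7% of such genes), and so were all 42 in MEFs (100%, against 93.3%). The median difference KO minus WT was 24.1 percentage points in mESCs and 36.3 in MEFs over all 49 genes. For the same genes of 5 to 30 kb the median of the differences was 26.8 points at proteasome genes and 14.5 at all such genes in mESCs, and 36.9 and 37.9 in MEFs. In mESCs the medians of the shares themselves, given above, lay about as far apart at proteasome genes as at all such genes, so the 2 ways of setting WT against KO differ there. When WT and KO lists were reduced to equal numbers of peaks, the medians were 21.5 points in mESCs and 30.7 in MEFs. How the scaling of H2Bub1 by the authors entered the calls is not stated, and its part in these differences was not tested.

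**Figure D2:**
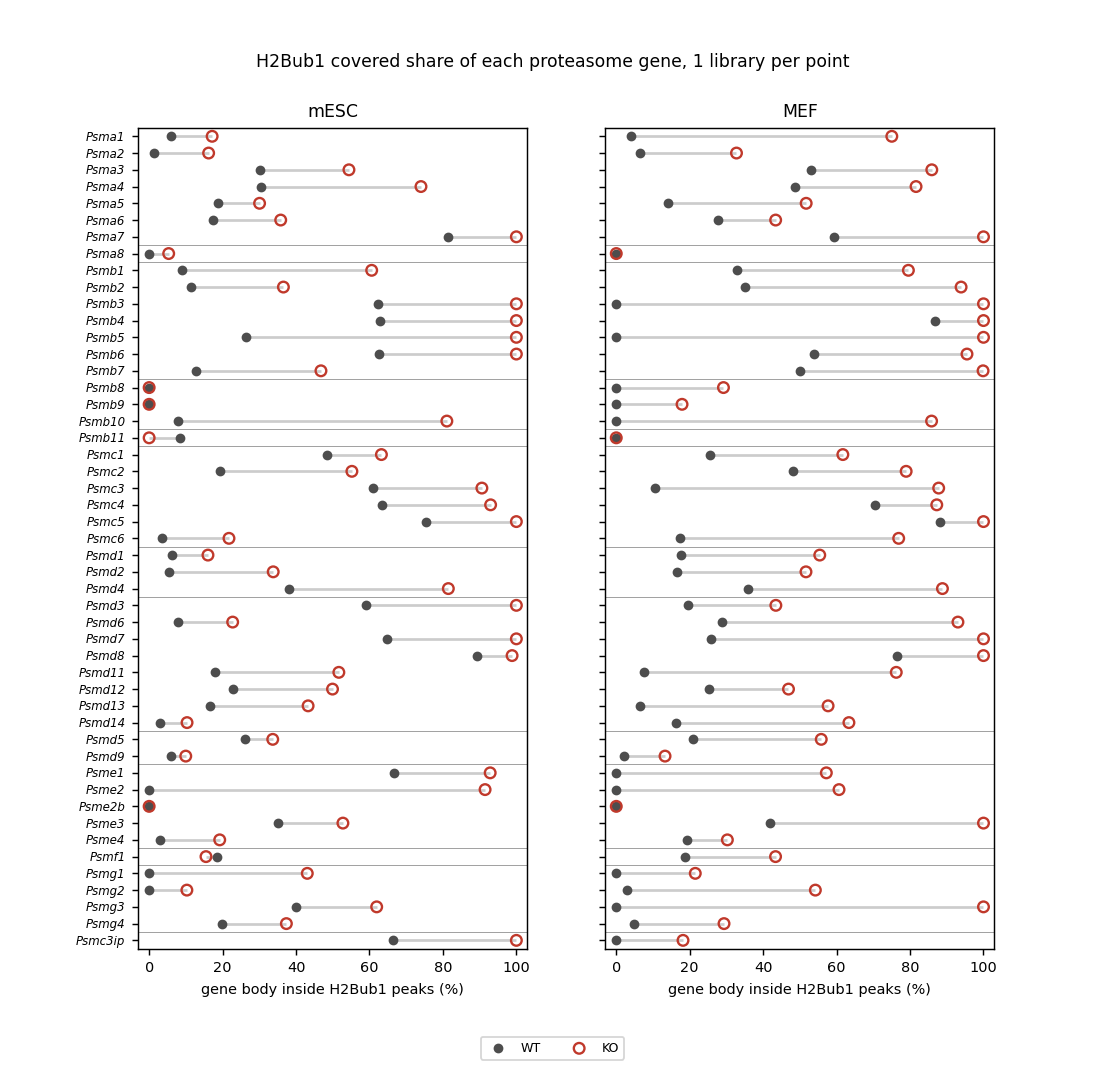
Share of each gene body inside H2Bub1 peaks (%) for the 49 genes ordered by module, in mESCs on the left and MEFs on the right, with WT as filled and KO as open circles joined by a line, 1 library each. The open circle lies to the right at 44 genes in mESCs and at 46 in MEFs.

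Each module with more than 1 gene held genes with a higher share in KO in both cell types. The 7 alpha subunits that form the gate had a median covered share of 18.8% in WT against 35.8% in KO mESCs, and of 27.7% and 75.0% in MEFs, and each of the 7 was higher in KO in both cell types. Psma7 stood highest, with 81.5% in WT against 100% in KO mESCs and 59.4% against 100% in MEFs. Psma2, whose record is 61.0 kb long, stood lowest in mESCs, with 1.31% in WT against 16.2% in KO mESCs and 6.52% against 32.7% in MEFs.

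Among the other alpha subunits, Psma1 had 5.91% in WT against 17.2% in KO mESCs and 4.05% against 75.0% in MEFs, the widest difference of the ring in MEFs. Psma3 had 30.3% in WT against 54.4% in KO mESCs and 52.9% against 85.9% in MEFs, and Psma4 had 30.4% in WT against 74.0% in KO mESCs and 48.6% against 81.6% in MEFs. Psma5 had 18.8% in WT against 30.1% in KO mESCs and 14.2% against 51.7% in MEFs, and its WT share was below those of Psma3 and Psma4 in both cell types. At Psma6, where Pol II lies at a transcript start 14553 bp into the record, H2Bub1 covered 17.3% in WT against 35.8% in KO mESCs and 27.7% against 43.4% in MEFs.

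The 7 constitutive beta subunits had the widest coverage in KO among modules with several genes, with medians of 26.5% in WT against 100% in KO mESCs and of 35.2% and 99.9% in MEFs. Psmb3 (chr11:97703399-97713500), a structural beta subunit, was covered over 62.3% in WT against 100% in KO mESCs and 0% against 100% in MEFs. Psmb4, another structural subunit and one of the shorter genes, had 62.8% in WT against 100% in KO mESCs and 86.9% against 100% in MEFs. At Psmb3 and Psmb5 no peak was called in WT MEFs, although both had a Pol II promoter peak there. Of the longer beta genes, Psmb1 (24.7 kb) had 9.03% in WT against 60.6% in KO mESCs and 32.9% against 79.6% in MEFs, and Psmb2 (32.1 kb) had 11.3% in WT against 36.6% in KO mESCs and 35.2% against 93.9% in MEFs.

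The 6 ATPases that unfold the substrate had medians of 54.8% in WT against 76.9% in KO mESCs, and of 36.8% and 83.1% in MEFs. Psmc5 was the most covered in WT, with 75.3% in WT against 100% in KO mESCs and 88.1% against 100% in MEFs, and Psmc6 the least in mESCs, with 3.42% in WT against 21.7% in KO mESCs and 17.3% against 76.9% in MEFs. The remaining ATPases had Psmc1 at 48.5% in WT against 63.3% in KO mESCs and 25.4% against 61.7% in MEFs, and Psmc2 at 19.3% in WT against 55.2% in KO mESCs and 48.2% against 78.9% in MEFs. Psmc3 had 61.1% in WT against 90.6% in KO mESCs and 10.54% against 87.8% in MEFs, and 37.0% of its length overlaps Slc39a13. Psmc4 had 63.4% in WT against 93.0% in KO mESCs and 70.5% against 87.3% in MEFs. In MEFs the 6 ATPases thus ranged from 10.54 to 88.1% in WT and from 61.7 to 100% in KO.

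Among the other base subunits, Psmd4, a receptor for ubiquitin chains, had 38.2% in WT against 81.5% in KO mESCs and 36.0% against 88.8% in MEFs. The scaffold Psmd1 had 6.18% in WT against 16.02% in KO mESCs and 17.5% against 55.4% in MEFs, and the scaffold Psmd2 had 5.48% in WT against 33.8% in KO mESCs and 16.6% against 51.7% in MEFs. Both lay below Psmd4 in every library. In covered share the base chaperones changed least among the assembly factors in mESCs, where Psmd5 had 26.1% in WT against 33.7% in KO and Psmd9 5.89% in WT against 9.97% in KO. This order rests on the long record of Psmd9 (80.7 kb) and did not hold for covered length. There Psmd9 had 4.76 kb in WT against 8.05 kb in KO mESCs, and the core chaperone Psmg3 1.32 against 2.04 kb. In MEFs Psmd5 had 20.8% in WT against 55.8% in KO and Psmd9 2.15% in WT against 13.3% in KO.

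The 8 lid subunits had medians of 20.4% in WT against 50.8% in KO mESCs, and of 22.4% and 69.8% in MEFs, and all were higher in KO. Psmd8 had the highest WT share of the lid in both cell types, with 89.2% in WT against 98.8% in KO mESCs and 76.6% against 100% in MEFs. Psmd14 (88.7 kb) had 2.86% in WT against 10.3% in KO mESCs and 16.2% against 63.4% in MEFs. Psmd3 had 59.2% in WT against 100% in KO mESCs and 19.6% against 43.5% in MEFs, and Psmd7 had 64.7% in WT against 100% in KO mESCs and 25.7% against 100% in MEFs. Both lid genes were filled in KO mESCs, and in KO MEFs only Psmd7 was.

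Psmd11, a lid subunit that braces the joint between core and regulatory particle, had 17.8% in WT against 51.7% in KO mESCs and 7.57% against 76.2% in MEFs. Psmd13 had 16.4% in WT against 43.3% in KO mESCs and 6.36% against 57.7% in MEFs. Psmd6 had 7.76% in WT against 22.7% in KO mESCs and 28.7% against 93.0% in MEFs, and Psmd12 had 22.9% in WT against 49.9% in KO mESCs and 25.1% against 46.9% in MEFs. Psmb1, Psmb7, Psmd6, Psmd8, Psmd12 and Psmd14 lacked the Pol II call in KO mESCs alone, and each of the 6 had a higher H2Bub1 share in KO mESCs.

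Psme1 and Psme2, neighbours on chromosome 14 that encode the partners of an interferon-induced activator, had no H2Bub1 peak in WT MEFs and 57.2% and 60.7% in KO MEFs. In mESCs Psme1 had 66.8% in WT against 92.9% in KO and Psme2 0% in WT against 91.5% in KO. The WT state of this pair thus differed in mESCs and was the same in MEFs. The nuclear activators were covered in both, with Psme3 at 35.0% in WT against 52.8% in KO mESCs and 41.9% against 100% in MEFs, and Psme4 at 3.07% in WT against 19.2% in KO mESCs and 19.4% against 30.3% in MEFs.

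Of the 4 core chaperones, Psmg1 had 0% in WT against 43.1% in KO mESCs and 0% against 21.5% in MEFs, and Psmg2 had 0% in WT against 10.3% in KO mESCs and 2.84% against 54.2% in MEFs. Psmg3 (chr5:139823592-139826885) had 40.0% in WT against 62.0% in KO mESCs and 0% against 100% in MEFs, and 85.5% of its length overlaps the gene record Gm26938. Psmg4 had 19.8% in WT against 37.4% in KO mESCs and 4.83% against 29.3% in MEFs. The WT share in MEFs was below 5% at all 4, and the KO share lay above it at each.

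The largest differences in mESCs were those of Psme2 (91.5 percentage points), Psmb5 (73.5) and Psmb10 (73.2). Psme2 (chr14:55587441-55591113) went from no peak to 3.36 kb of its 3.67 kb, without a Pol II promoter peak in either mESC list, and its start lies 595 bp from that of Rnf31. In MEFs the largest were those of Psmb3, Psmb5 and Psmg3, each of which went from 0 to 100%. The 5 genes are at most 10.1 kb long. In each KO list for which a gene is named here, a single broad peak held its covered part.

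The smallest differences in mESCs were those of Psmb11 (-8.36 points) and Psmf1 (-2.93), the 2 genes with a lower share in KO, followed by Psmb8, Psmb9 and Psme2b with no peak in either genotype. Psmf1 (chr2:151715812-151744186) had 18.4% in WT against 15.5% in KO mESCs and 18.7% against 43.4% in MEFs, so that its order was opposite in the 2 cell types. In MEFs the smallest were those of Psma8, Psmb11 and Psme2b, at 0 in both genotypes.

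The position of H2Bub1 within the genes was then examined by dividing each gene body into 4 equal stretches. In MEFs the mean covered share of the stretch after the TSS was 37.4% for WT and 81.6% for KO, and that of the stretch before the transcript end was 6.69% and 41.5%. In mESCs the former was 36.4% and 71.2%, and the latter 21.6% and 40.5%. Coverage was highest at the 5′ end in each library.

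**Figure D3:**
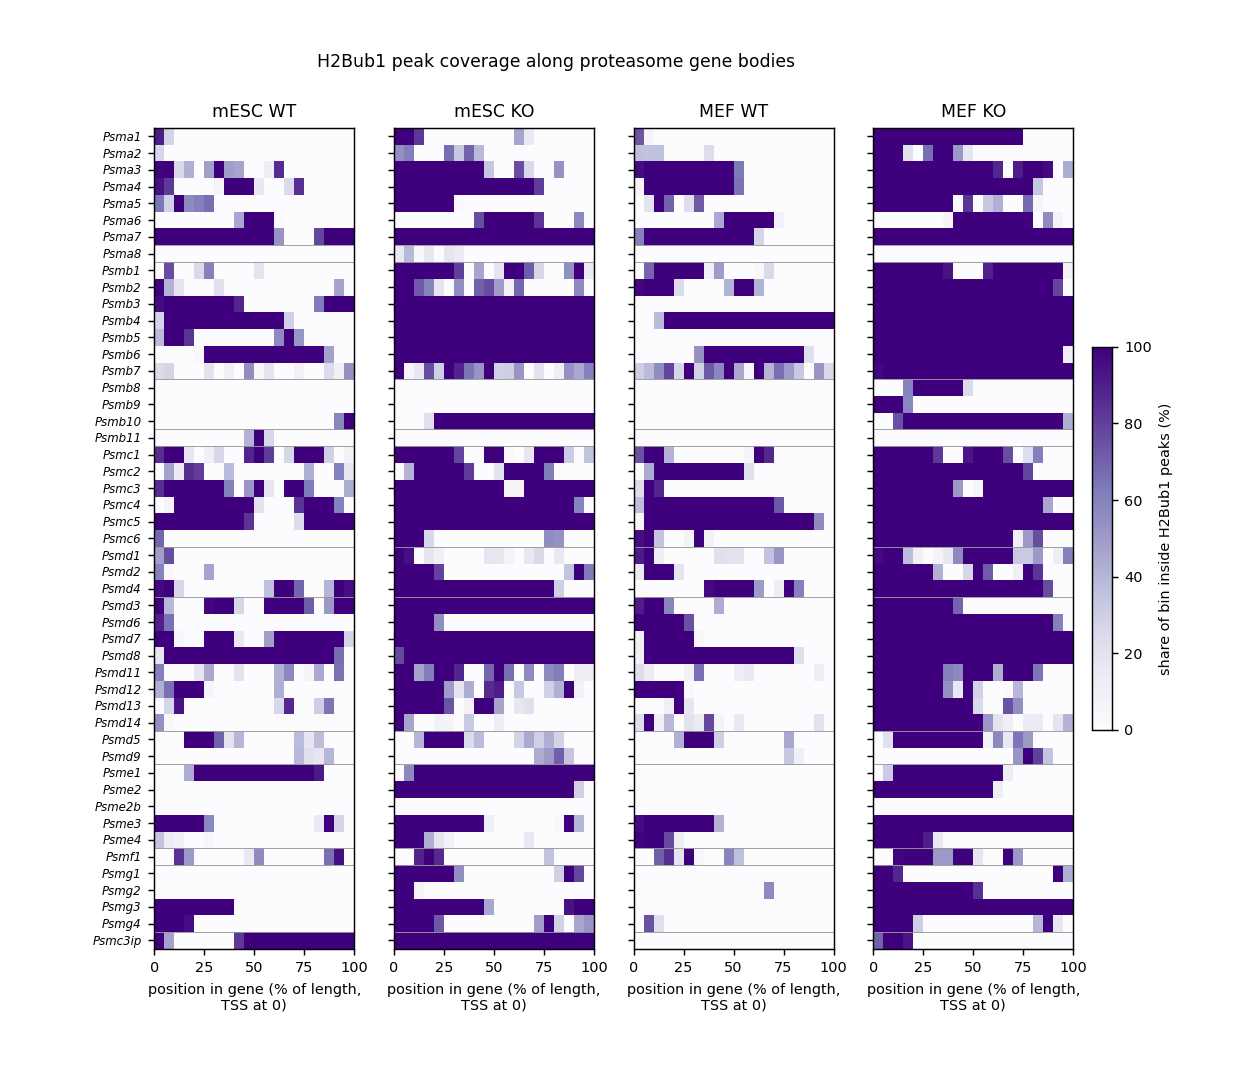
Share of each of 20 equal bins of the gene body inside H2Bub1 peaks (colour, 0 to 100%), from the TSS on the left to the transcript end on the right of each panel, for the 49 genes ordered by module in the 4 libraries. Dark stretches are longer in KO than in WT in both cell types, and the rows of Psmb8 and Psmb9 are empty except in KO MEFs.

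The TSS itself lay inside an H2Bub1 peak at 13 of the 49 genes in WT mESCs (26.5%, against 18.7% of all genes) and at 37 in KO (75.5%, against 39.6%). In WT MEFs it did so at 2, Psmd6 and Psmd12 (4.08%, against 3.65%), and in KO MEFs at 36 (73.5%, against 36.1%). The whole body was covered at 0 genes in WT mESCs (against 1.55% of all genes) and at 9 in KO (18.4%, against 5.16%), and at 0 in WT MEFs (against 0.207%) and 9 in KO (18.4%, against 6.00%). Psma7, Psmb3, Psmb4, Psmb5, Psmc5 and Psmd7 were fully covered in both KO lists. The transcript end was inside a peak at 8 genes in WT mESCs (16.3%, against 10.3%), 15 in KO mESCs (30.6%, against 14.3%), 1 in WT MEFs (2.04%, against 1.89%) and 12 in KO MEFs (24.5%, against 12.3%).

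Along the distance from the TSS, the share of proteasome genes inside a peak was highest 250 bp downstream in WT mESCs (59.2%) and 850 bp downstream in KO mESCs (81.2%). In MEFs it was highest at 1450 bp in WT (47.9%) and at 650 bp in KO (85.7%). Over all genes with Pol II in both genotypes the maxima were 76.8% at 350 bp and 94.3% at 450 bp in mESCs, and 25.1% at 950 bp and 89.2% at 800 bp in MEFs. Over the proteasome genes that also had Pol II in both genotypes, the maxima were 80% in WT against 100% in KO over 20 genes in mESCs, and 54.8% and 100% over 42 in MEFs. Each maximum is taken at its own distance, and in WT mESCs the 80% stand for 16 of 20 genes.

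**Figure D4:**
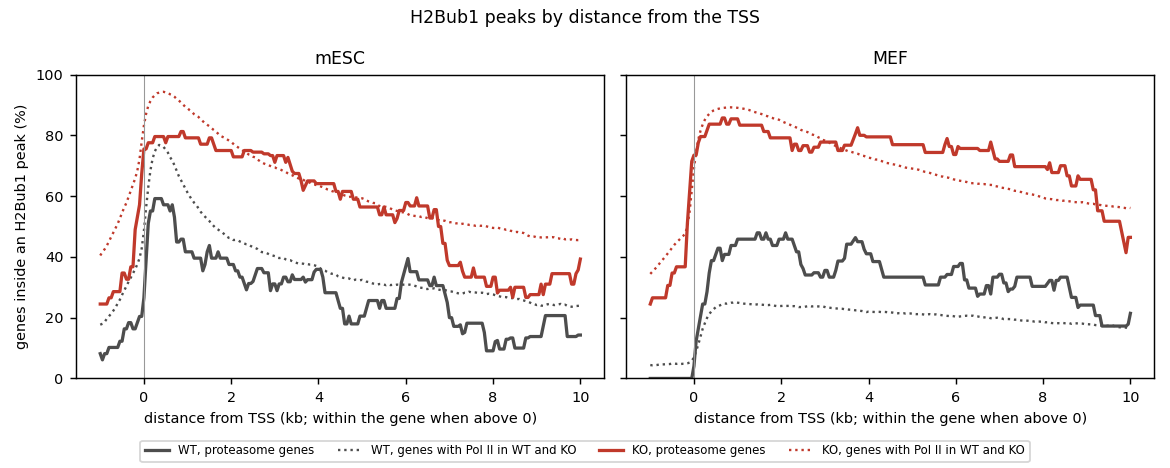
Percent of genes with an H2Bub1 peak at each distance from the TSS (kb, only positions within the gene above 0), for the proteasome genes as solid lines and for all genes whose promoter holds Pol II in both genotypes as dotted lines, WT in grey and KO in red. The solid KO line peaks at 81.2% in mESCs and 85.7% in MEFs.

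Longer genes had more covered length and, except in WT MEFs, a smaller covered share. Across the 49 genes, which share the library and the peak threshold, Spearman's rho between covered length and gene length was 0.40 in WT against 0.70 in KO mESCs, and 0.62 in WT against 0.79 in KO MEFs. Between covered share and gene length it was -0.34 and -0.47 in mESCs and 0.13 and -0.30 in MEFs. The 10 genes under 5 kb had a median covered share of 92.2% in KO mESCs and the 10 genes over 30 kb one of 17.7%, while their median covered lengths were 2.68 and 11.9 kb. In KO MEFs the corresponding shares were 73.3% and 49.4%, and the lengths 2.28 and 31.5 kb. Psmb7 (56.1 kb) had the longest covered stretch, of 55.99 kb in KO MEFs, where its share was 99.9%. At Psme4 (109 kb) the longest stretch was 18.58 kb in KO mESCs and 32.1 kb in KO MEFs, with shares of 19.2% and 30.3%.

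**Figure D5:**
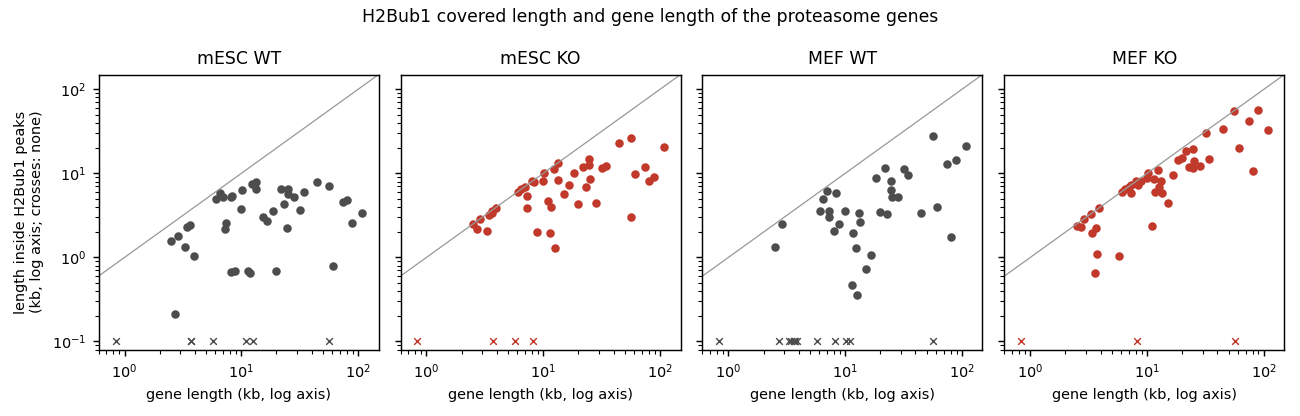
Length inside H2Bub1 peaks against gene length (kb, both log axes) for each proteasome gene in the 4 libraries, with crosses for genes without a peak and a grey line where the whole gene is covered. In each KO panel 9 genes lie on the line, and in each WT panel 0 do.

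Pol II promoter fold and H2Bub1 were weakly related across the proteasome genes. Spearman's rho between promoter fold and covered length was -0.10 over 26 genes in WT and 0.34 over 23 in KO mESCs, and 0.26 over 43 in WT and 0.10 over 42 in KO MEFs. Between the log2 ratio of fold and the difference in covered share it was -0.15 over 20 genes in mESCs and -0.08 over 42 in MEFs. Psma1 had the lowest fold ratio in MEFs, at 0.337, and one of the wider differences in H2Bub1, with 4.05% in WT against 75.0% in KO. Psmc5, with the highest ratio, had 88.1% in WT against 100% in KO, the most that a share can reach.

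The constitutive active sites were set beside the interferon-induced subunits that can replace them. Psmb5, which carries the chymotrypsin-like site (chr14:54614119-54618022), had no Pol II promoter peak in mESCs and a fold of 12.7 in WT against 7.32 in KO MEFs, with H2Bub1 over 26.5% in WT against 100% in KO mESCs and 0% against 100% in MEFs. Psmb8 (chr17:34197721-34201454), its induced replacement, had no Pol II peak in mESCs and 6.37 in WT against 2.96 in KO MEFs, and H2Bub1 over 0% in both mESC libraries and WT MEFs and 29.2% in KO MEFs. Psmb8 thus had the lower Pol II fold in both MEF libraries and the lower H2Bub1 share in each library but WT MEFs, where both were at 0.

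Psmb6 (chr11:70525367-70527858), with the caspase-like site, had no Pol II peak in mESCs and a fold of 18.3 in WT against 13.6 in KO MEFs, with H2Bub1 over 62.5% in WT against 100% in KO mESCs and 53.8% against 95.5% in MEFs. Psmb9 (chr17:34181987-34187764), which replaces it, had 6.54 in WT against 4.50 in KO MEFs and H2Bub1 only in KO MEFs, at 17.9%. Its start lies 211 bp from that of Tap1, a peptide transporter gene on the other strand, and the Pol II fold at Tap1 was the same as at Psmb9 in both MEF libraries. At Tap1 H2Bub1 covered 0% in WT against 25.7% in KO MEFs.

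Psmb7, with the trypsin-like site, had a Pol II fold of 3.69 in WT mESCs, none in KO mESCs, and 13.5 in WT against 7.32 in KO MEFs, with H2Bub1 over 12.6% in WT against 46.8% in KO mESCs and 50.1% against 99.9% in MEFs. Its induced replacement Psmb10 (chr8:105935735-105938444) differed from Psmb8 and Psmb9, with a Pol II fold of 15.7 in WT against 16.1 in KO MEFs and H2Bub1 over 7.90% in WT against 81.1% in KO mESCs and 0% against 85.9% in MEFs. The Pol II summit at Psmb10 in MEFs lay more than 1000 bp into the gene. No sample was labelled as treated with interferon.

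The genes known from a single tissue had little of either mark. Psma8, the testis alpha subunit, had no Pol II promoter peak in any library and H2Bub1 over 0% in WT against 5.32% in KO mESCs, and 0% in both MEF libraries. Psmb11, the beta subunit of the thymic cortex, had no Pol II peak, and its 8.36% of H2Bub1 in WT mESCs was its only coverage. Psme2b had neither mark in any library. Psmc3ip, which is no subunit, had Pol II peaks in all 4 libraries and H2Bub1 over 66.5% in WT against 100% in KO mESCs and 0% against 18.2% in MEFs.

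Between cell types the order of the genes was partly kept. Spearman's rho of the covered share in mESCs and MEFs was 0.50 in WT against 0.68 in KO over the 49 genes, and between WT and KO it was 0.82 in mESCs and 0.55 in MEFs. For Pol II promoter fold it was 0.28 over 26 genes in WT and 0.18 over 23 in KO between cell types, and 0.61 over 20 in mESCs and 0.73 over 42 in MEFs between genotypes. These values are descriptions over genes that share libraries and length.

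Other genes of the pathway were taken from a list of 30 names, of which 28 were found on autosomes: ubiquitin genes, shuttle factors, assembly and signalling partners, and antigen-processing genes. Of these, 23 had a Pol II promoter peak in each mESC library, 27 in WT MEFs and 26 in KO MEFs, where the shares of all genes were 35.3%, 32.1%, 55.3% and 52.3% as above. Their covered share was higher in KO at 24 of 28 in mESCs and at all 28 in MEFs. That was so at 54.2% and 53.8% of all genes, and at 84.7% and 93.3% of genes with Pol II called in both genotypes. The median covered shares of the 28 genes were 45.4% in WT against 59.2% in KO mESCs, and 38.2% and 88.9% in MEFs. Nfe2l1, the transcription factor that raises proteasome genes when degradation fails, had a Pol II fold of 4.66 in WT against 4.82 in KO mESCs and 21.5 against 17.8 in MEFs, and H2Bub1 over 98.6% in WT against 100% in KO mESCs and 56.5% against 100% in MEFs. Both marks were thus present at Nfe2l1 in every library. Nfe2l2, its relative in the oxidative stress response, had 6.98 in WT against 12.8 in KO mESCs and 19.5 against 23.3 in MEFs. Pomp, the maturation factor of the core particle, had a fold of 4.14 in WT against 3.34 in KO mESCs and 24.2 against 22.5 in MEFs, and H2Bub1 over 46.1% in WT against 90.7% in KO mESCs and 51.2% against 89.9% in MEFs. Neither gene was without Pol II in any library. Adrm1, a ubiquitin receptor of the base outside the symbol rule, had H2Bub1 over 97.7% in WT against 100% in KO mESCs and 71.9% against 100% in MEFs.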

How the data were processed

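The 8 samples with peak files were used, of 16 in the series, and the other 8 (inputs and further antibodies) were not analysed here. The authors sequenced single-end reads, and their processing notes name bcl2fastq 2.17.1.14, Bowtie 1.0.0, the mm10 genome and MACS2 2.1.1.20160309, with peaks called in each library, narrow for Pol II and broad for H2Bub1. Before calling, the authors scaled H2Bub1 with size factors of DESeq2 taken from large intergenic regions, and Pol II by mapped reads. How this entered the calls, the control and the thresholds are not given in the sources used here. The deposited peak lines hold the fold (a linear ratio of pileup over the library's own background, at the summit of narrow and averaged over broad peaks), the -log10 p and -log10 q, and the summit offset. Folds rank genes within a list, and their KO to WT ratios compare enrichments over the background of each library. The smallest gap between H2Bub1 peaks was 933 bp (WT mESCs), 1089 bp (KO mESCs), 1173 bp (WT MEFs) and 1193 bp (KO MEFs), so that shorter gaps are bridged in the deposited peaks.

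Coordinates were set against GENCODE M21 (GRCm38), with promoters reaching 1000 bp to each side of the TSS and bodies from TSS to transcript end. Of the 49 genes, 13 overlap another gene record and 12 have another TSS within the promoter window, and peaks carry no strand. With 1 library per group no test was made, and the comparison is with all 20807 autosomal protein-coding genes in the same list. Genes were named by a rule: those without a Pol II promoter peak in some library, the extremes of each measure, active-site genes, tissue-restricted genes, Atxn7l3 and lists. Further members were named after their values had been seen. The members and lists were chosen with earlier results of these data known. The functions were tested on simulated peaks. Tried instead were peaks with -log10 q of 3 or more, lists of equal length, a promoter window starting 100 bp before and ending 300 bp after the TSS, 10% of the body as H2Bub1 call, bodies from 1000 bp (genes over 2000 bp), peaks under 1000 bp apart joined, genes at least 1000 bp from another gene, leaving out Psmc3ip and Psme2b, and, added later, all transcript starts. Computing was done in Python 3.11.15 with pandas 2.3.3, numpy 2.4.6, matplotlib 3.10.9 and scipy 1.17.1.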

Additional observations from a re-analysis of the deposited data

Results flagged for a closer look

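For 4 genes the difference between KO and WT pointed one way in mESCs and the other way in MEFs. With 1 library per group these differences between the cell types were not tested, and each rests on single libraries. The H2Bub1 covered share of Psmf1, the inhibitor of the core particle, differed by -2.93 percentage points (KO minus WT) in mESCs and by 24.7 in MEFs. The log2 ratio of KO to WT Pol II promoter fold was 0.29 in mESCs and -0.60 in MEFs at Psmd13, a lid subunit whose start lies 341 bp from that of Sirt3. At Psme4, the nuclear activator, it was 0.51 and -0.33, and at Psmg1, a chaperone of the alpha ring, 0.44 and -0.81. Opposite directions of any size in Pol II fold were found at 10 of the 20 proteasome genes with peaks in all 4 libraries, and the 3 named are those with a log2 ratio of at least 0.25 in size in both cell types.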

How the results depend on the processing

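Over 18 results and 8 alternatives, 98 of 104 values stayed within the 95% exact interval of the value reported, which covers counting over genes only. Joining peaks under 1000 bp apart left all 18 values as they were and is not counted. Of the 4 H2Bub1 lists 3 hold no gap that short, while all 4 Pol II lists do. The median log2 KO to WT ratio of Pol II fold in mESCs, -0.0014 as reported, was 0.033 with all transcript starts, and it stayed below 0 under the other alternatives. With equal numbers of peaks 22 proteasome genes in WT and 23 in KO mESCs had a Pol II peak, where 26 and 23 were reported, and the counts for a single genotype, 6 for WT and 3 for KO, were 3 and 4. With a -log10 q of at least 3, the percent of proteasome genes with an H2Bub1 body peak was 40.8 in WT mESCs and 20.4 in WT MEFs, and the median difference KO minus WT in MEFs was 54.2 percentage points. Under a call at 10% of the body, the percent in WT mESCs was 61.2. The percent of genes with a Pol II peak in WT only in MEFs, which rests on Psmd9, was 0 among genes at least 1000 bp from another gene, since Psmd9 is not among them, and 0 with all transcript starts, which was added once the values were known. The cause was not tested for the values at the stricter q. No replicate could be left out, since each group has 1 library. The read depth is unknown, and it limits how far an absent peak can be read: of the 36 proteasome genes with H2Bub1 in WT MEFs, 10 kept a peak at the stricter q.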

Other observations

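Shuttle factors bring ubiquitin-tagged proteins to the proteasome. Rad23b had a Pol II promoter fold of 6.73 in WT against 5.02 in KO mESCs and 16.7 against 15.0 in MEFs, and Ubqln1 had 7.29 in WT against 7.63 in KO mESCs and 23.5 against 18.2 in MEFs. Usp14, a ubiquitin protease bound to the proteasome, had no Pol II promoter peak in any library with the window at its gene record. Folds at other transcript starts were taken for the proteasome genes only. H2Bub1 at Usp14 covered 7.73% in WT against 12.7% in KO mESCs and 11.0% against 30.1% in MEFs. The antigen-processing genes Tap1 and Tap2 had no Pol II promoter peak in mESCs, and Tap2 had one in WT MEFs only, with a fold of 4.19. B2m, the light chain of class I molecules, had a fold of 3.75 in WT against 4.95 in KO mESCs and 28.2 against 31.2 in MEFs, and H2Bub1 over 0% in WT against 78.3% in KO mESCs and 77.2% against 100% in MEFs.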
